A study of Mus musculus with 20 samples.

Results

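The genes described here are 2-oxoglutarate dioxygenases that fumarate can inhibit, chosen by symbol alone. They are the TET and AlkB enzymes, the JmjC histone demethylases with symbols from Kdm2 to Kdm7 and Phf8, the HIF hydroxylases and the collagen hydroxylases. Demethylases under other symbols fall outside the rule. The rule found 37 of the 24421 gene symbols in the count table, namely 3 TET, 8 AlkB, 16 histone demethylase, 4 HIF hydroxylase and 6 collagen hydroxylase genes. Small pieces of snap-frozen mouse kidney were profiled by RNA sequencing in 4 groups of 5 animals: Fh1-/- and Fh1+/+, each at day 5 and at day 10 after induction. Which part of the kidney each piece held is not stated. All animals were 12 weeks old, of mixed C57BL/6 and 129/SvJ background, carried the Cre-ERT2 recombinase at both Rosa26 alleles and received 3 injections of 2 mg tamoxifen. The Fh1-/- animals were in addition homozygous for a floxed Fh1 allele, and their Fh1+/+ littermates lacked it. The Rosa26 promoter is active in most cell types, so recombination was not confined to one kidney cell type, and in bulk tissue fewer cells of a type and less RNA per cell cannot be told apart.

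These enzymes share one chemistry. Each uses ferrous iron, molecular oxygen and 2-oxoglutarate, an intermediate of the Krebs cycle, to oxidise its substrate, and releases succinate and carbon dioxide. Fumarate resembles 2-oxoglutarate and competes with it at the active site, so loss of fumarate hydratase (the product of Fh1) is known to inhibit members of the family as proteins. The substrates set the families apart: TET enzymes oxidise methylated cytosine, AlkB enzymes remove alkyl groups from DNA, RNA or proteins, JmjC demethylases strip methyl groups from histone lysines, HIF hydroxylases mark the hypoxia-inducible factor for degradation or silence it, and collagen hydroxylases act on prolines and lysines of new collagen chains. The libraries measure the transcripts of these enzymes, not their activity.

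The libraries held between 16654829 and 25001294 counts. Fh1-/- day 10 replicates 1 and 3 stood apart from the other 18 libraries: on the first principal component, with 42.71% of the variance, they lay at 124.9 and 127.99, and the others between −31.427 and 30.246. In these libraries the summed level of 7 proximal tubule markers was 3949 and 4167 CPM (counts scaled to library size by the trimmed mean of M values), against 12433 to 16336 in Fh1+/+ kidneys at day 10, and that of 6 tubular injury markers was 133377 and 126156 CPM, against 828 to 2042. The defining proximal tubule genes were well above 0 in every library (Lrp2 805 to 3033 CPM, Slc34a1 368 to 7381 CPM). Whole-gene counts of Fh1 were not lower in Fh1-/- kidneys at day 10 (248.9 to 420.5 CPM, against 223.9 to 257.7 CPM in Fh1+/+). These counts cover the whole gene, including exons outside the floxed part, so they do not check the genotype, and the groups are named as labelled.

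All but 2 members were measured well enough to be tested, in each of the 5 comparisons. P4ha3, another catalytic subunit of collagen prolyl hydroxylase, and Kdm4d, a histone demethylase best known from testis, fell below the filter on low counts. P4ha3 had 9 reads in all 5 Fh1+/+ kidneys at day 5, 30 in Fh1-/- at day 5, 11 in Fh1+/+ at day 10 and 2 in Fh1-/- at day 10. The exact Poisson intervals, which cover counting error only, were 0.0442 to 0.183 CPM of the summed libraries, not normalized further, in Fh1+/+ at day 5 and 0.199 to 0.420 in Fh1-/- at day 5. Of the 30 reads, 13 came from replicate 3 and 0 from replicate 1. Kdm4d had between 5 and 13 reads per group.

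Per kilobase of exon, the most abundant transcripts in control kidneys were those of Alkbh5, the demethylase of methylated adenosine in mRNA, and of the HIF prolyl hydroxylases Egln2 and Egln1. In Fh1+/+ kidneys at day 5 the mean level was 30.5 ± 1.39 CPM per kilobase (SD, n = 5) for Alkbh5, 28.7 ± 3.25 for Egln2 and 25.01 ± 1.21 for Egln1. Alkbh7, a mitochondrial AlkB protein, followed at 16.2 ± 2.04, P4ha1 at 13.5 ± 1.17 and Plod2 at 12.0 ± 2.59 CPM per kilobase. Kdm5c led the histone demethylases at 10.8 ± 1.27. The TET transcripts were low, with Tet2 at 1.72 ± 0.17, Tet3 at 1.54 ± 0.25 and Tet1 at 0.181 ± 0.067 CPM per kilobase. Neighbours in this order mostly could not be separated, since the ranges of 31 of 36 neighbouring pairs overlapped. The order also depended on the gene model: divided by the longest transcript in place of all exons, Egln2 stood first at 38.1 CPM per kilobase.

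**Figure D1:**
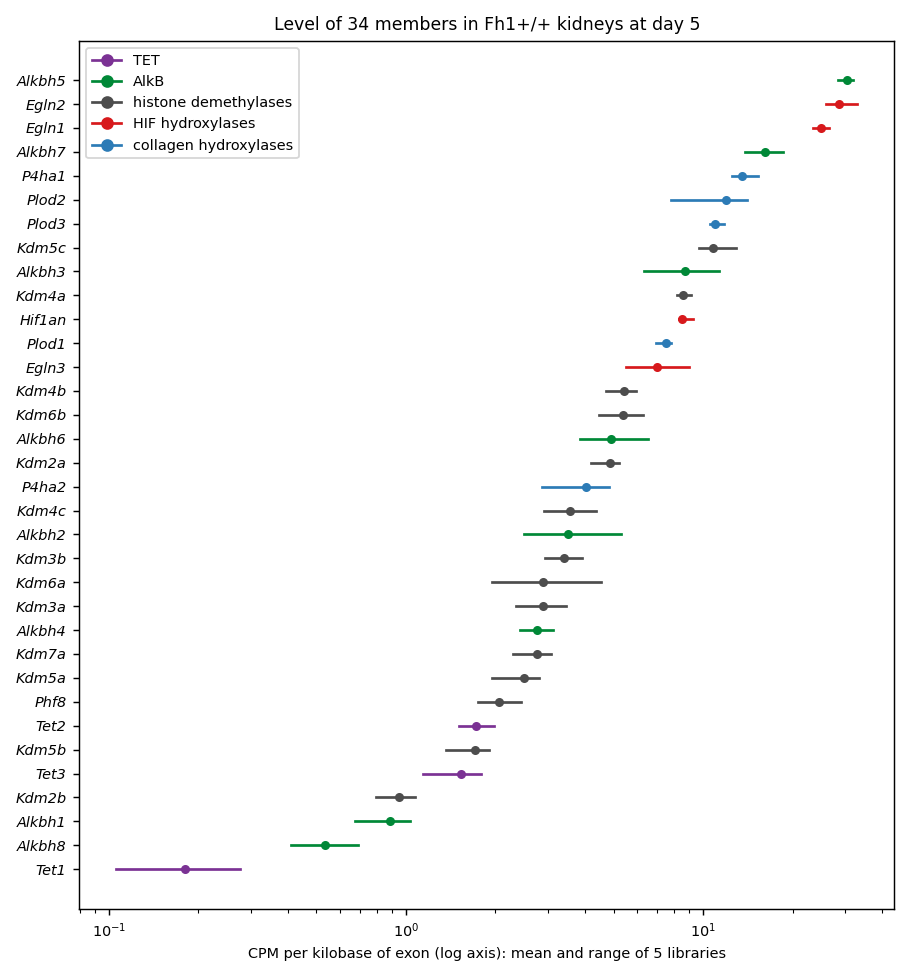
Level of 34 members in Fh1+/+ kidneys at day 5, in CPM per kilobase of exon on a log axis; dots are means and lines the range of 5 libraries, coloured by enzyme group. Alkbh5, Egln2 and Egln1 lie highest (30.5, 28.7 and 25.01) and Tet1 lowest (0.181); P4ha3, Kdm4d and the Y-linked Kdm5d are not drawn.

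The first comparison asked which of these transcripts differed between the genotypes once fumarate hydratase had been lost for 10 days. At day 10, none of the 35 members tested passed the study's thresholds (adjusted p under 0.01 and an absolute log2 fold change over 0.58 by edgeR's quasi-likelihood test), where 0.0557% of the 14360 genes tested did. At an unadjusted p under 0.05 by edgeR, 5 members were higher in Fh1-/- kidneys (Alkbh2, Egln2, Kdm6b, P4ha2 and Plod3), which is 14.3% of those tested beside 15.1% of all genes, and 4 were lower (Alkbh7, Egln1, P4ha1 and Plod2), 11.4% beside 11.9%. Both shares are near the background. None of the 35 had an adjusted p under 0.05 (1.88% of genes higher and 0.947% lower), and in none did all 5 Fh1-/- libraries lie above (4.42%) or below (3.43%) all 5 controls. DESeq2, the tool of the study, called 2 members, P4ha1 and Plod2, both lower, which is 5.71% beside 5.55% of all genes. The median log2 fold change of the members was 0.05, and of all genes −0.0007. Scaled by library totals alone, an alternative chosen after seeing the data, the medians were −0.13 and −0.17, and 2 members were higher and 4 were lower by the same unadjusted rule. The largest differences by size were in the collagen hydroxylases and Tet1, and the collagen and HIF groups each held members on either side of 0.

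**Figure D2:**
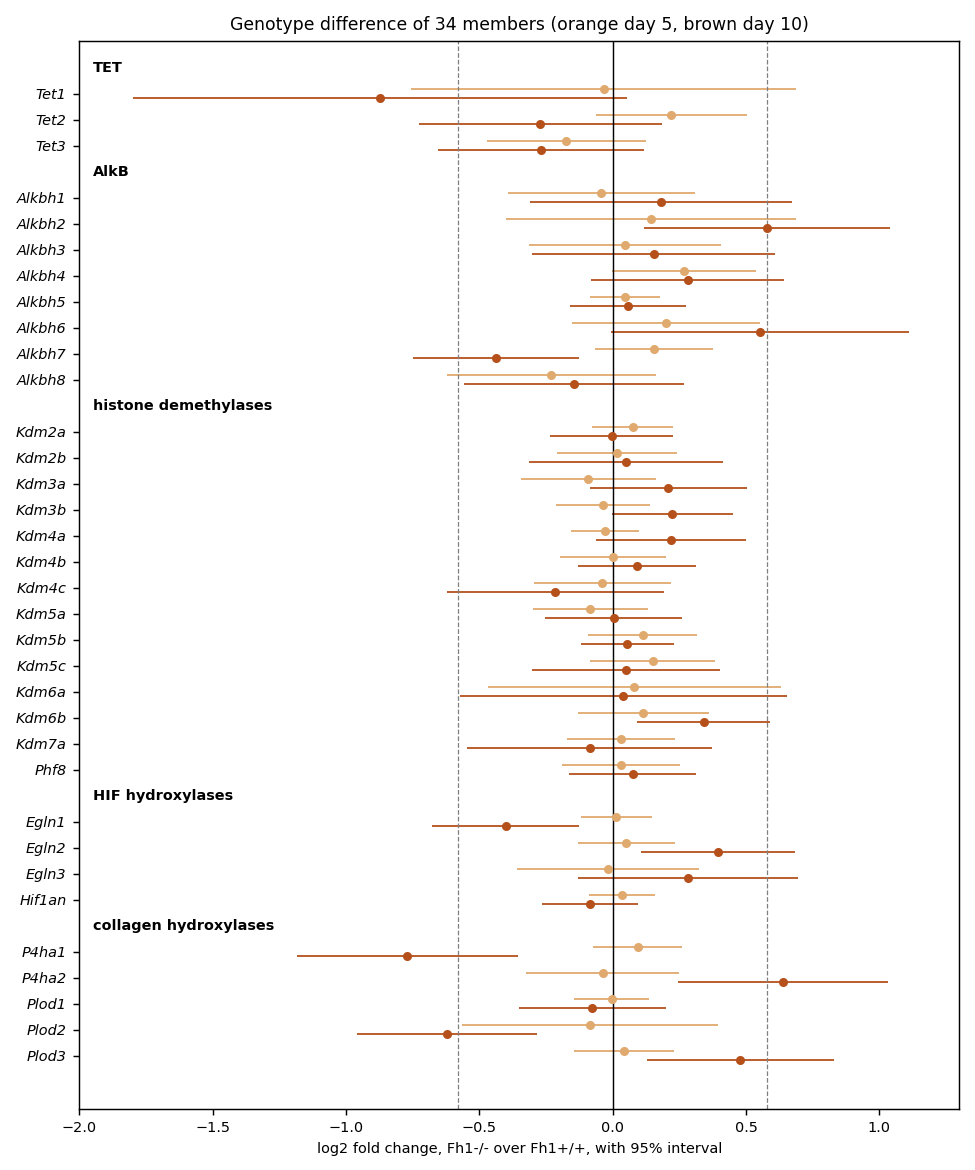
Log2 fold change of 34 members between Fh1-/- and Fh1+/+ kidneys with its 95% interval from edgeR, at day 5 (orange) and day 10 (brown), by enzyme group; dashed lines mark ±0.58 and Kdm5d, whose interval runs from −3.84 to 2.84 at day 10, is left out. At day 10 P4ha1, Plod2, Egln1 and Alkbh7 lie left of 0 and P4ha2, Plod3, Egln2, Alkbh2 and Kdm6b right of it with intervals that leave out 0; at day 5 every interval covers 0.

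The collagen hydroxylases held the 3 lowest p-values among the members at day 10. P4ha1 and P4ha2 encode the alternative catalytic subunits of collagen prolyl hydroxylase, the enzyme that stabilises the collagen triple helix; P4ha1 lies at chr10:59323296-59373304 and P4ha2 at chr11:54100095-54131665 (GRCm38). Their promoters are printed because the log2 fold changes had opposite signs and both genes are known targets of the hypoxia-inducible factor. The windows run from 250 bases before to 50 after the RefSeq transcription start (GRCm38.p6), 5′ to 3′ on the gene's strand, and capitals mark the core letters of a hypoxia response element, ACGTG or GCGTG, on either strand. Overlapping matches were counted separately.
P4ha1, chr10:59323046-59323345, plus strand: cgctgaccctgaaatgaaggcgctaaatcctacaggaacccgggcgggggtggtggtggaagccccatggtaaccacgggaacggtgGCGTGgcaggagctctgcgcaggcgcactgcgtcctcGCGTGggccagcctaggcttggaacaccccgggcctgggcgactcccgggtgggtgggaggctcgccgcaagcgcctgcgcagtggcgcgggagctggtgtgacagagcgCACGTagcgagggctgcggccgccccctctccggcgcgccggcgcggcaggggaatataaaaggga
P4ha2, chr11:54100674-54100973, plus strand: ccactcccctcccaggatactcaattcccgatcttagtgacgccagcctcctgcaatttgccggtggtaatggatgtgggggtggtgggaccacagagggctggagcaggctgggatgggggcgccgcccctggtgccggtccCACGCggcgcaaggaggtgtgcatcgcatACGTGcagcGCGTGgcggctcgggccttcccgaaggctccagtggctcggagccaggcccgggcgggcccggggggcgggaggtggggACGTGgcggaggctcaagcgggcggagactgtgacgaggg
The P4ha1 window held 3 core matches and the P4ha2 window 4. Such cores are common: 20 of the 31 members with a window had at least 1 (64.5%), against 61.1% of the 10859 genes that were tested at day 10 and have a window. The stricter letters ACGTG stood in 13 of 31 member windows (41.9%), against 24.8% of those genes. A match is a description of the letters and not a site.

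P4ha1 was at 41.8, 61.9, 62.8, 54.9 and 44.3 CPM in Fh1+/+ replicates 1 to 5 at day 10 and at 23.7, 34.8, 23.6, 32.7 and 42.4 CPM in the Fh1-/- replicates. Only the highest Fh1-/- value, that of replicate 5, exceeded the lowest control, so 4 of 5 Fh1-/- kidneys lay below every control. The log2 fold change was −0.77 ± 0.19 (standard error; adjusted p = 0.0556 by edgeR), and the adjusted p was 0.0050 by DESeq2 and 0.0024 in one edgeR fit of all 20 libraries. Those 2 settings called 796 of 14350 and 838 of 14934 genes. P4ha2 had a higher mean in Fh1-/- kidneys. It was at 22.1, 18.4, 20.4, 24.6 and 20.5 CPM in Fh1+/+ and at 34.9, 21.7, 35.5, 45.9 and 29.0 CPM in Fh1-/- kidneys, where replicate 2 was the only one within the control range. Its log2 fold change was 0.64 ± 0.18 (adjusted p = 0.0730 by edgeR). The reads of P4ha2 per read of P4ha1 form a ratio that no library scaling can move. At day 10 it was between 0.296 and 0.528 in the 5 Fh1+/+ kidneys and between 0.623 and 1.503 in the 5 Fh1-/- kidneys, without overlap. The 2 genes were paired after their opposite values in these same libraries were seen, which favours such a separation, so it is a description and not a test.

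Among the lysyl hydroxylases, Plod2 had a lower and Plod3 a higher mean in Fh1-/- kidneys, and neither passed the test by edgeR. Plod2 (chr9:92542223-92608428), which hydroxylates the telopeptide lysines used in collagen cross-links, was at 55.6, 43.6, 38.3, 56.1 and 64.0 CPM in Fh1+/+ and at 31.7, 35.3, 27.7, 39.7 and 34.9 CPM in Fh1-/- kidneys at day 10. All but the fourth Fh1-/- replicate lay below the controls. The log2 fold change was −0.62 ± 0.15 (adjusted p = 0.0566 by edgeR, 0.0059 by DESeq2). Plod3 (chr5:136987019-136996648), which also adds sugars to hydroxylysine, was at 45.1, 49.8, 49.9, 48.9 and 42.2 CPM in Fh1+/+ and at 75.3, 49.7, 90.9, 57.0 and 59.1 CPM in Fh1-/- kidneys. The 2 highest values were those of the libraries that stood apart. Its log2 fold change was 0.48 ± 0.16 (adjusted p = 0.102 by edgeR), and 11.7% of its exon bases are shared with Znhit1 on the opposite strand. Reads of Plod3 per read of Plod2 were 0.660 to 1.303 in Fh1+/+ and 1.406 to 3.29 in Fh1-/- kidneys at day 10. In Fh1-/- kidneys at day 5 they ran from 0.619 to 1.415, which reached into the day 10 range. Plod1, the other lysyl hydroxylase, was at 47.5 ± 2.62 CPM in Fh1+/+ and 45.5 ± 8.15 CPM in Fh1-/- kidneys (SD, n = 5), a log2 fold change of −0.08 with a 95% interval of −0.35 to 0.20. These pairs were singled out after their values were seen and carry no test of their own.

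**Figure D3:**
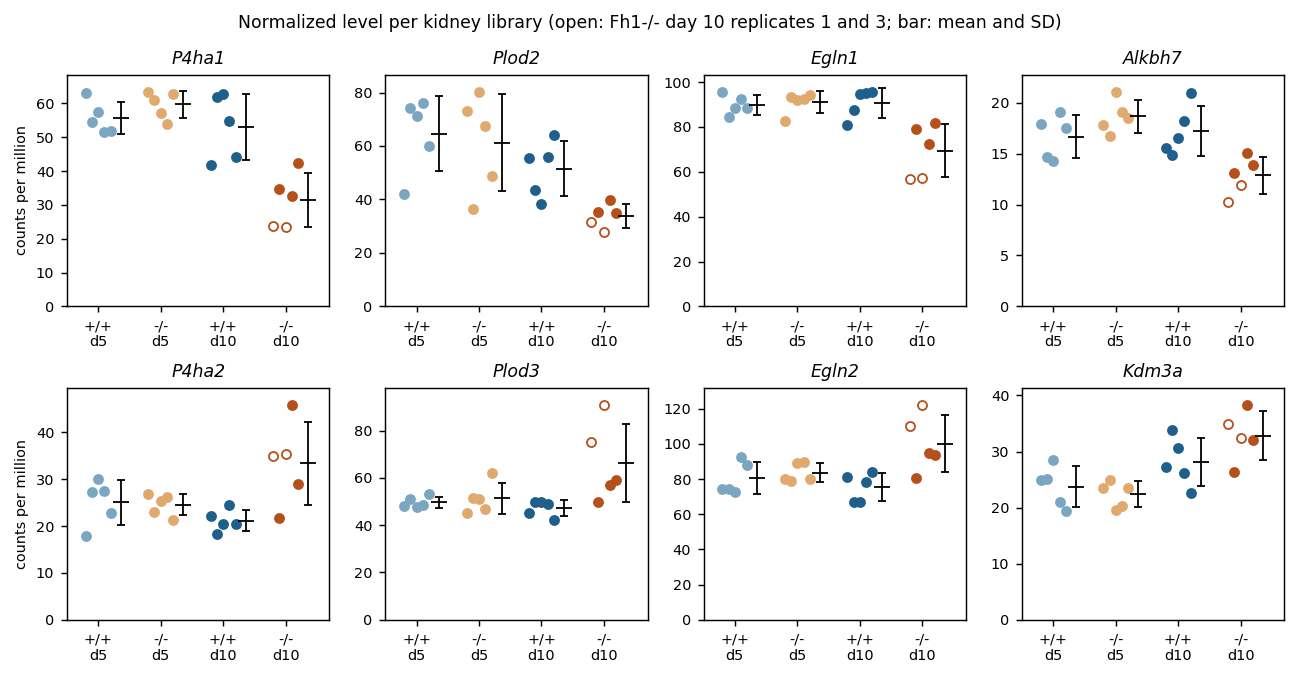
CPM of 8 members in each kidney library, by genotype and day (d5, d10); open circles are Fh1-/- day 10 replicates 1 and 3 and bars give mean and SD of 5 libraries. P4ha1, Plod2, Egln1 and Alkbh7 (top) are lower in the Fh1-/- day 10 group and P4ha2, Plod3 and Egln2 (bottom) higher, each with 4 of 5 libraries past every Fh1+/+ library of that day, and Kdm3a with 2.

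Without Fh1-/- day 10 replicates 1 and 3, an alternative chosen after seeing the data, the log2 fold changes were −0.54 for P4ha1 (adjusted p = 0.148 by edgeR), 0.60 for P4ha2 (0.177), −0.49 for Plod2 (0.165) and 0.23 for Plod3 (0.233). The summed level of 7 fibroblast and pericyte markers was 98.1 to 391 CPM in Fh1-/- kidneys at day 10 and 286 to 696 CPM in Fh1+/+. Replicates 1 and 3 were at 98.1 and 104 CPM, and 5 of the 7 markers were lower at an unadjusted p under 0.05 by edgeR. Other summed lists were also low in replicates 1 and 3. Endothelium was at 64.0 and 60.8 CPM (Fh1+/+ at day 10: 246 to 459) and podocyte at 89.3 and 82.9 (219 to 440). Leukocyte markers were at 71.5 and 73.9 CPM (139 to 248), but these were not the lowest values of the group, which ran from 67.2 to 161 CPM. Of 7 tested leukocyte markers, 4 were lower at an unadjusted p under 0.05 by edgeR. Cd68 went the other way, with a mean of 18.6 CPM in Fh1-/- and 6.99 CPM in Fh1+/+ at day 10. The sum of 2 thick ascending limb markers, Umod and Slc12a1, was 7012 and 7071 CPM, within the control range (5868 to 11789). Most of this sum is Umod, with a mean of 6799 CPM in Fh1+/+ and 9292 CPM in Fh1-/- at day 10. Slc12a1 had a lower mean in Fh1-/- at day 10, 706 CPM against 1483 CPM in Fh1+/+, so the sum does not speak for both markers. None of the 7 fibroblast and pericyte markers was at 0 in any library. The part of these lists in the result was not tested.

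Among the HIF hydroxylases, Egln1 had a lower and Egln2 a higher mean in Fh1-/- kidneys at day 10, and neither passed the test. Egln1 (chr8:124908587-124949324) encodes the prolyl hydroxylase that does most of the oxygen-dependent marking of the hypoxia-inducible factor, and Egln2 (chr7:27158658-27166802) a paralog with a partly different substrate range. Their promoter windows are shown on the same terms because the log2 fold changes of these paralogs, too, had opposite signs. RefSeq gives Egln2 a second window, at chr7:27165679-27165978, with 1 core match, and the counts over members above use the first window of each gene.
Egln1, chr8:124949205-124949504, minus strand: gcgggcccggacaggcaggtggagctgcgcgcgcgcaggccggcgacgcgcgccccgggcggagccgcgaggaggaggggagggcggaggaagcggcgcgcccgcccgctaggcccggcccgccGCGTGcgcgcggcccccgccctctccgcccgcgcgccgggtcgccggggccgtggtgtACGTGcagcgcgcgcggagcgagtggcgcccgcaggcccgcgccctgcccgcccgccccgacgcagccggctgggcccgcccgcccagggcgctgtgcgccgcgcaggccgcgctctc
Egln2, chr7:27166753-27167052, minus strand: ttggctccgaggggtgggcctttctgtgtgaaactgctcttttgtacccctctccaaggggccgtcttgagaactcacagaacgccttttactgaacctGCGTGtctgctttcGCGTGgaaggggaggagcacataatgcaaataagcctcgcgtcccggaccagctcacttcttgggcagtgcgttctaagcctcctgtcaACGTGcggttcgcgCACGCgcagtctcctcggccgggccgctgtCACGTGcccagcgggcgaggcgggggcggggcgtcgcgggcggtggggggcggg
The Egln1 window held 2 core matches and the printed Egln2 window 6. At day 10 Egln1 was at 80.7, 87.4, 94.9, 95.2 and 95.6 CPM in Fh1+/+ and at 56.6, 79.0, 57.2, 72.4 and 81.9 CPM in Fh1-/- kidneys. Replicate 5 alone reached the control range. The log2 fold change was −0.40 ± 0.12 (adjusted p = 0.0895 by edgeR). Egln2 was at 81.2, 66.8, 66.7, 78.5 and 84.1 CPM in Fh1+/+ and at 110, 80.4, 122, 94.7 and 93.8 CPM in Fh1-/- kidneys, above every control in all but replicate 2, and its log2 fold change was 0.39 ± 0.13 (adjusted p = 0.101 by edgeR). Reads of Egln2 per read of Egln1 were 0.704 to 1.006 in Fh1+/+ and 1.019 to 2.14 in Fh1-/- kidneys, so the ranges nearly met. This pair, too, was singled out after its values were seen and carries no test of its own. Egln3, itself a known target of the factor it marks, was at 23.3 ± 5.57 CPM in Fh1+/+ and 28.6 ± 5.34 CPM in Fh1-/- (log2 fold change 0.28, 95% interval −0.13 to 0.70). Hif1an, the asparaginyl hydroxylase that blocks coactivator binding, differed little, at 60.3 ± 3.57 and 57.5 ± 3.38 CPM (log2 fold change −0.08, 95% interval −0.26 to 0.10). Without Fh1-/- day 10 replicates 1 and 3 the log2 fold change was −0.22 for Egln1 (adjusted p = 0.232 by edgeR) and 0.25 for Egln2 (0.257).

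Among the enzymes that act on nucleic acids, the 3 TET transcripts were all lower in mean in Fh1-/- kidneys at day 10 and none passed the test. Tet1 was at 1.74, 3.56, 3.48, 1.98 and 2.29 CPM in Fh1+/+ and at 0.736, 2.70, 0.711, 0.953 and 2.02 CPM in Fh1-/- kidneys. Replicates 1, 3 and 4 were below all controls, and the other 2 within their range. The log2 fold change was −0.87 ± 0.42 (adjusted p = 0.204 by edgeR), with a 95% interval of −1.80 to 0.05. Outside Fh1-/- at day 10 its level also divided by the sex of the animals (given with Kdm5d). Tet2, the most abundant of the 3, was at 29.3, 24.8, 28.8, 21.9 and 30.0 CPM in Fh1+/+ and at 17.3, 31.6, 14.1, 25.8 and 24.1 CPM in Fh1-/- kidneys, with both values under 20 in the libraries that stood apart. Its log2 fold change was −0.27 ± 0.21 and became 0.0097 without those libraries. Tet3 was at 26.1 ± 3.33 CPM in Fh1+/+ and 21.9 ± 5.45 CPM in Fh1-/- (log2 fold change −0.27, and −0.03 without those libraries).

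In the AlkB group, Alkbh7 had a lower and Alkbh2 a higher mean, and neither passed the test. Alkbh7 (chr17:56997339-56999322), which acts in mitochondria and is known for a role in programmed necrosis, was at 15.6, 14.9, 16.6, 18.2 and 21.0 CPM in Fh1+/+ and at 10.3, 13.1, 11.9, 15.1 and 13.9 CPM in Fh1-/- kidneys at day 10, and the log2 fold change was −0.44 ± 0.14 (adjusted p = 0.0942 by edgeR). Only replicate 4 reached the control range. Alkbh2 (chr5:114123926-114128218), a nuclear enzyme that repairs alkylated DNA, was at 3.12, 3.98, 4.53, 4.92 and 4.30 CPM in Fh1+/+ and at 7.66, 4.05, 7.39, 6.67 and 5.71 CPM in Fh1-/- (log2 fold change 0.58 ± 0.21, adjusted p = 0.121 by edgeR). Here replicate 2 alone overlapped the controls. Of the exon bases of Alkbh2, 29.5% are shared with Usp30 on the opposite strand, and whether the counting used strand is not stated. Alkbh6 was at 17.2, 18.5, 17.7, 18.8 and 12.1 CPM in Fh1+/+ and at 31.1, 17.9, 38.9, 15.3 and 21.7 CPM in Fh1-/- kidneys. Its log2 fold change of 0.55 rested on replicates 1 and 3 and was 0.12 without them. Alkbh4, known to act on actin, was at 6.35, 7.77, 7.84, 7.76 and 7.31 CPM in Fh1+/+ and at 11.2, 7.37, 10.9, 7.57 and 8.37 CPM in Fh1-/- (log2 fold change 0.28, 95% interval −0.08 to 0.64), again with the 2 highest values in replicates 1 and 3. Alkbh5 differed little at 179 ± 4.22 and 188 ± 19.8 CPM (log2 fold change 0.06, 95% interval −0.16 to 0.28, and −0.098 on library totals alone). Alkbh1, Alkbh3 and Alkbh8 had log2 fold changes of 0.18, 0.15 and −0.15. Without replicates 1 and 3 the values were −0.30 for Alkbh7 and 0.39 for Alkbh2.

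None of the histone demethylases matched by the rule passed the test. Jmjd1c, whose symbol the rule does not match, is given with the dioxygenases outside the rule. Of 15 tested, 11 had a log2 fold change above 0 at day 10, where 49.9% of all genes did, and 4 below, the median was 0.05, every value lay within ±0.58, and 14 had a 95% interval inside ±1. Kdm6b (chr11:69398508-69413675), an inducible enzyme that removes the Polycomb mark, was at 38.8, 36.7, 40.9, 34.6 and 32.5 CPM in Fh1+/+ and at 45.9, 39.5, 56.8, 47.7 and 45.2 CPM in Fh1-/- kidneys, so that all but replicate 2 exceeded the controls (log2 fold change 0.34 ± 0.11, adjusted p = 0.101 by edgeR, and 0.26 without replicates 1 and 3). Kdm3b, which removes a repressive methyl mark of histone H3, was at 45.8, 53.4, 51.2, 53.6 and 41.5 CPM in Fh1+/+ and at 59.1, 51.6, 60.5, 65.0 and 53.6 CPM in Fh1-/- (log2 fold change 0.22 ± 0.10, adjusted p = 0.189 by edgeR). A gene model on the opposite strand covers 24.6% of its exon bases. Kdm4a was at 48.7 ± 3.12 and 57.4 ± 10.3 CPM and its paralog Kdm4c at 21.6 ± 3.73 and 18.8 ± 4.41 CPM, with log2 fold changes of 0.22 and −0.22. Kdm3a, a known target of the hypoxia-inducible factor, was at 28.1 ± 4.31 and 32.8 ± 4.38 CPM (log2 fold change 0.21, 95% interval −0.09 to 0.50). For Kdm2a and Kdm5a, which act on different methyl marks of histone H3, the log2 fold changes were −0.0037 and 0.0032.

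Kdm5d lies on the Y chromosome (chrY:897788-956786), and its reads divided the libraries by the sex of the animal, which the labels do not give. It had 4 reads or fewer in 8 libraries, 1 of them Fh1+/+ and 2 Fh1-/- at day 5, 2 Fh1+/+ and 3 Fh1-/- at day 10, and between 243 and 410 reads in the other 12. Its X-linked relative Kdm6a followed the same division. Kdm6a, which is known to escape X inactivation, was at 29.5 to 46.9 CPM in the libraries without Kdm5d and at 16.4 to 28.7 CPM in those with it. The X-linked Kdm5c was at 78.7 to 99.2 and at 60.3 to 83.9 CPM and overlapped only through Fh1-/- day 10 libraries, and the X-linked Phf8 overlapped throughout, at 18.8 to 21.5 and at 16.3 to 25.3 CPM. The groups differ in this makeup, and the log2 fold change between genotypes of Kdm5d at day 10 was −0.50 with a standard error of 1.51, and that of Kdm6a 0.04 with a standard error of 0.28.

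Outside Fh1-/- at day 10, Plod2, Tet1 and Alkbh3, which are not sex-linked, also followed this division. In those 15 libraries, 6 of 35 members did not overlap between the classes, namely Kdm5c, Kdm5d, Kdm6a and these 3, where 11.6% of 14360 genes did not. Apart from the sex-linked members, the share was not above that of all genes, so the division is not particular to these enzymes. Plod2 was at 36.4 to 48.9 CPM where Kdm5d was missing and at 55.6 to 80.3 CPM where it was present, and Alkbh3 at 20.01 to 24.7 and at 25.2 to 35.9 CPM. Tet1 was at 3.48 to 4.27 and at 1.33 to 3.35 CPM. At day 10, Tet1 was at 0.711 to 2.02 CPM in Fh1-/- and 3.48 to 3.56 CPM in Fh1+/+ kidneys without Kdm5d reads, and at 0.953 to 2.70 against 1.74 to 2.29 CPM with them, where the genotypes overlapped. For Plod2 the genotypes did not overlap at day 10 within either class: it was at 27.7 to 34.9 CPM in 3 Fh1-/- and 38.3 to 43.6 CPM in 2 Fh1+/+ kidneys without Kdm5d reads, and at 35.3 to 39.7 CPM in 2 Fh1-/- and 55.6 to 64.0 CPM in 3 Fh1+/+ kidneys with them. P4ha1 was at 23.6 to 42.4 against 61.9 to 62.8 CPM without Kdm5d reads and at 32.7 to 34.8 against 41.8 to 54.9 CPM with them. Of 35 members, 4 lay below the controls within both classes (P4ha1, Plod2, Egln1 and Alkbh7), beside 6.96% of all genes tested, and 2 lay above (Kdm6b and Plod3), beside 7.61%. With the Y-linked level as a covariate the adjusted p of Plod2 at day 10 was 0.0316 and that of P4ha1 0.0536 (edgeR).

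**Figure D4:**
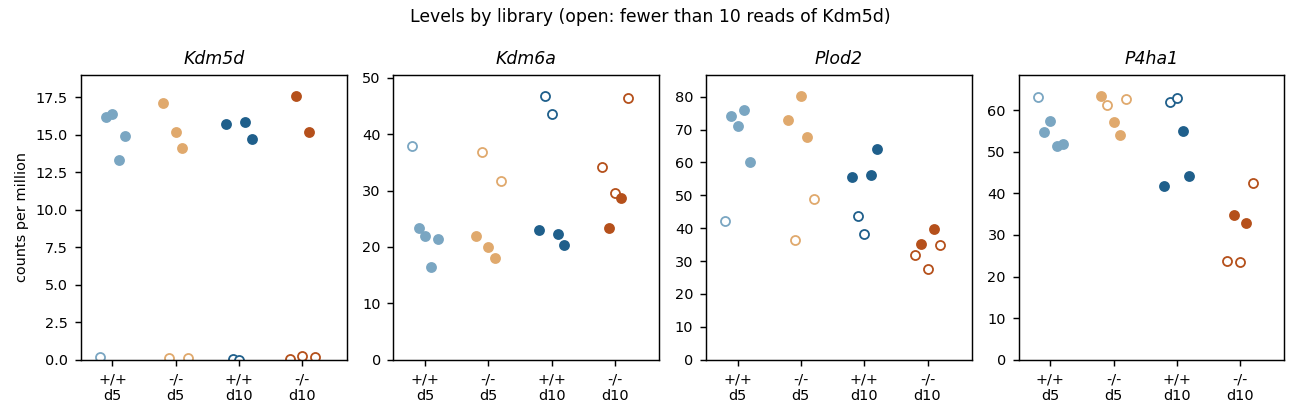
CPM of Kdm5d, Kdm6a, Plod2 and P4ha1 in the 20 libraries, by genotype and day (d5, d10); open circles are the 8 libraries with 4 or fewer Kdm5d reads. Kdm6a is higher in the open circles in every group, Plod2 lower, and for Plod2 and P4ha1 the Fh1-/- day 10 libraries lie below the Fh1+/+ day 10 libraries of the same class.

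At day 5 the genotypes could not be told apart in these genes. None of 35 members passed by edgeR (background 0.0347%) or DESeq2 (background 0.216%), and none had an unadjusted p under 0.05 by edgeR, where 2.42% of genes were higher and 2.37% lower. In no member did the groups separate (0.521% of genes above and 0.389% below). Log2 fold changes ran from −0.40, for Kdm5d, to 0.27, for Alkbh4, and the median was 0.03. Of the 9 members with an unadjusted p under 0.05 at day 10, the day 5 intervals were −0.07 to 0.26 for P4ha1, −0.32 to 0.25 for P4ha2, −0.12 to 0.15 for Egln1, −0.13 to 0.23 for Egln2, −0.15 to 0.23 for Plod3, −0.07 to 0.38 for Alkbh7 and −0.13 to 0.36 for Kdm6b. Those of Plod2, −0.57 to 0.40, and Alkbh2, −0.40 to 0.69, were wider. P4ha1 was at 63.2, 54.7, 57.4, 51.5 and 51.8 CPM in Fh1+/+ and 63.5, 61.1, 57.1, 54.0 and 62.8 CPM in Fh1-/- kidneys at day 5, and the groups overlapped throughout. Tet2 was at 28.4, 33.4, 27.7, 25.5 and 29.9 CPM in Fh1+/+ and 32.0, 35.3, 44.2, 26.0 and 32.0 CPM in Fh1-/- (log2 fold change 0.22, 95% interval −0.06 to 0.50). Kdm5b and Kdm5c, which remove an activating mark of histone H3, had log2 fold changes of 0.11 and 0.15.

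The genotype differences at the 2 days were then compared with each other. No member passed the thresholds (background 0.0335% of 14934 genes by edgeR), and at an unadjusted p under 0.05 by edgeR 3 had a higher and 3 a lower difference at day 10 (background 11.8% and 8.4%). P4ha1 had the lowest p: its genotype difference at day 10 minus that at day 5 was −0.87 on the log2 scale (standard error 0.20, adjusted p = 0.0435 by edgeR, 0.0049 by DESeq2). It was the only member with an adjusted p under 0.05 in edgeR (0.328% of genes were lower and 0.75% higher by that rule) and the only one DESeq2 called (background 1.82%). Without Fh1-/- day 10 replicates 1 and 3 the difference was −0.63 (adjusted p = 0.104 by edgeR). Among the other members the difference between the days was −0.84 for Tet1 (adjusted p = 0.389 by edgeR), −0.55 for Plod2 (0.284) and −0.50 for Tet2 (0.268). It was −0.60 for Alkbh7 (adjusted p = 0.0798 by edgeR), −0.42 for Egln1 (0.109), 0.67 for P4ha2 (0.129), 0.43 for Plod3 (0.202) and 0.33 for Egln2 (0.245).

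Set against day 5 in the same genotype, Fh1-/- kidneys at day 10 had lower means of P4ha1 and Plod2. No member passed both thresholds in edgeR (background 0.576%), and DESeq2 called P4ha1 and Plod2 (background 9.01%). At an adjusted p under 0.05 by edgeR with no fold threshold, 4 members were lower, 11.4% beside 5.09% of all genes, and 2 were higher, 5.71% beside 6.52%. The lower ones were P4ha1 (log2 fold change −0.94, adjusted p = 0.0115 by edgeR), Alkbh7 (−0.56, 0.0248), Plod2 (−0.88, 0.0295) and Egln1 (−0.41, 0.0495). The higher ones were Kdm3a (0.53, adjusted p = 0.0233 by edgeR) and Egln3 (0.61, 0.0499). Kdm3a was at 23.4, 24.99, 19.5, 20.3 and 23.6 CPM at day 5 and at 34.9, 26.4, 32.3, 38.3 and 32.1 CPM at day 10 in Fh1-/- kidneys, with no overlap, but its controls at day 10 reached 33.9 CPM. Egln3 was at 22.5, 16.3, 18.2, 21.7 and 14.0 CPM at day 5 and at 32.1, 25.9, 33.6, 20.6 and 30.9 CPM at day 10 in Fh1-/- kidneys, where replicate 4 alone stayed in the earlier range. Kdm3a and Kdm3b were above day 5 in all 5 libraries (background 6.82%), and P4ha1, Egln1 and Alkbh7 below it (background 5.68%). Without Fh1-/- day 10 replicates 1 and 3 the adjusted p was 0.0151 for P4ha1, 0.0447 for Alkbh7, 0.0497 for Kdm3a, 0.0848 for Plod2, 0.0864 for Egln1 and 0.155 for Egln3 (edgeR). In Fh1+/+ kidneys the days differed in no member and in no gene of 14501 by edgeR or DESeq2, 1 member having an unadjusted p under 0.05 by edgeR (Alkbh4, log2 fold change 0.34) beside 1.99% of genes higher and 1.98% lower by that rule. The comparison of days within Fh1-/- shares its day 10 libraries with the genotype comparison, so the lists are not independent.

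**Figure D5:**
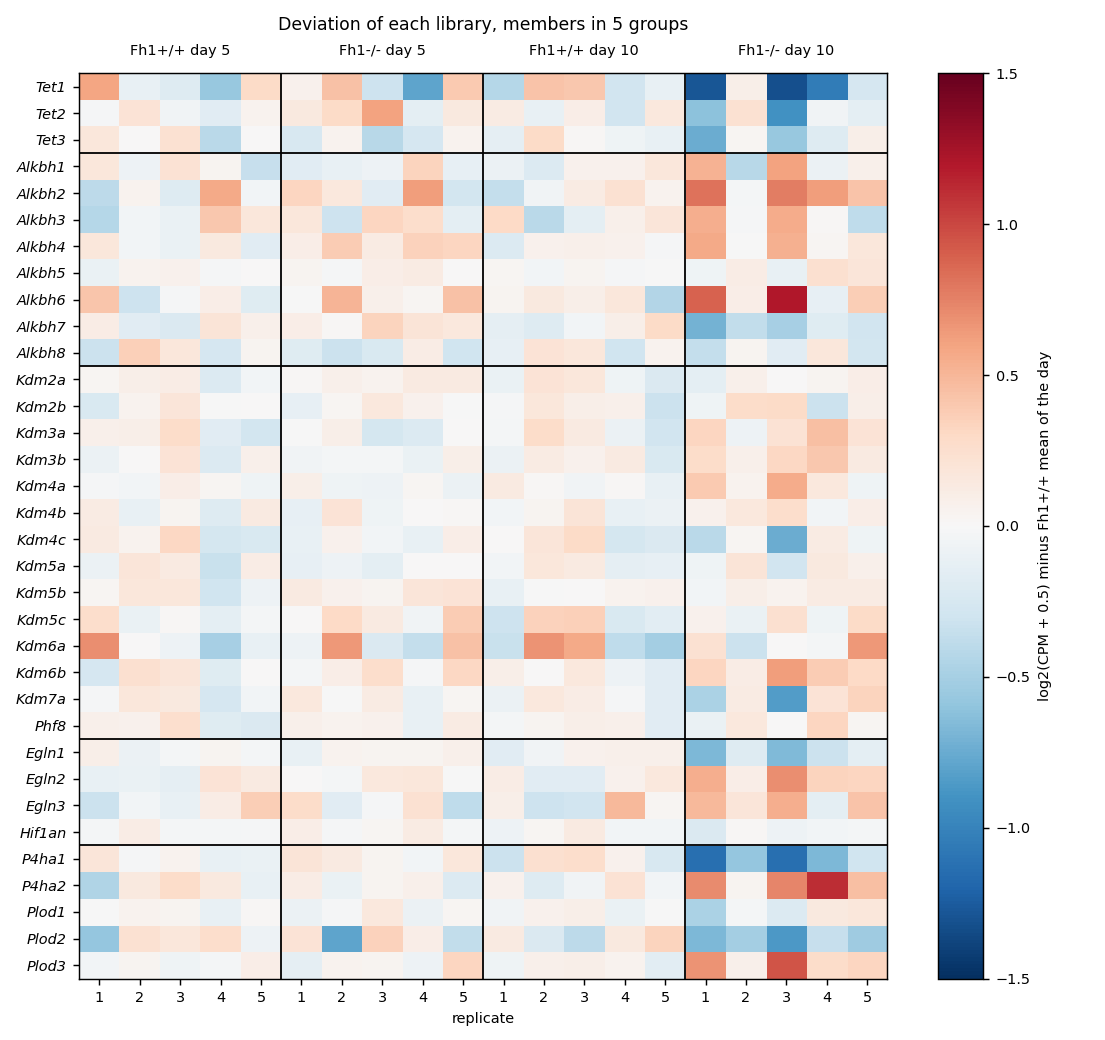
Log2(CPM + 0.5) of 34 members in each of 20 libraries, minus the Fh1+/+ mean of the same day; red is higher and blue lower, on a scale cut at ±1.5, with lines between the 5 enzyme groups. The Fh1-/- day 10 columns hold the strongest colours, above all replicates 1 and 3, with P4ha1 and Plod2 blue and P4ha2, Plod3 and Egln2 red or near white in all 5.

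The partners of these enzymes were read from lists of known genes. Of 29 collagens, collagen chaperones and cross-linking enzymes, none passed the thresholds at day 10 by edgeR (background 0.0557%), 16 were lower at an unadjusted p under 0.05 (background 11.9%) and none higher, and the median log2 fold change was −0.72. Leaving out Fh1-/- day 10 replicates 1 and 3, 10 were lower (34.5%, where 8.33% of all genes were) and 1 higher (3.45%, against 10.8%). The median was then −0.55. Serpinh1, the collagen chaperone that binds hydroxylated chains, was at 101 ± 17.6 CPM in Fh1+/+ and 58.9 ± 8.55 CPM in Fh1-/- (log2 fold change −0.79, adjusted p = 0.0351 by edgeR). Col6a2 was at 21.4 ± 9.49 and 5.18 ± 3.54 CPM (−2.05, adjusted p = 0.0428 by edgeR), and Col6a3 and Col5a1 had log2 fold changes of −2.52 and −1.80. The fibroblast and pericyte markers given above were lower in the same group, and 3 of the 7 are themselves collagen genes; their part in the result was not tested.

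Of 35 tested subunits, partners and targets of the hypoxia-inducible factor, none passed at day 10, 11 were higher at an unadjusted p under 0.05 by edgeR (31.4%, background 15.1%) and 2 lower (5.71%, background 11.9%), with a median of 0.14. Without Fh1-/- day 10 replicates 1 and 3, 7 were higher (20%, where 10.8% of all genes were) and 2 lower (5.71%, against 8.33%), and the median was 0.07. The tubular injury markers were highest in the same 2 libraries, and their part in the result was not tested. Bnip3, a mitophagy receptor, was at 82.0 ± 16.3 CPM in Fh1+/+ and 158 ± 37.9 CPM in Fh1-/- (log2 fold change 0.93, adjusted p = 0.0379 by edgeR). Arnt2, a dimerisation partner, had a log2 fold change of 0.82, Edn1 (endothelin) 1.75 and Adm (adrenomedullin) 0.89. Without those 2 libraries the values were 1.01 for Bnip3 (adjusted p = 0.0818 by edgeR), 0.52 for Arnt2 (0.0984), 1.01 for Edn1 (0.128) and 0.56 for Adm (0.206). These genes were named for their low p and do not stand for the list. Without the same libraries the log2 fold change was largest for Hif3a, at 3.07 (adjusted p = 0.0387 by edgeR). It was 1.05 for Ndrg1, but 0.07 for Vegfa and 0.05 for Slc2a1. It was −0.22 for Ldha, −0.25 for Pgk1 and −0.46 for Pfkfb4.

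The shares of the other lists are set beside 15.1% of all genes on the higher side and 11.9% on the lower, at an unadjusted p under 0.05 by edgeR. Of 26 tested 2-oxoglutarate dioxygenases outside the rule, 7 were on the higher side (26.9%) and 5 on the lower (19.2%), with a median of −0.01. Without Fh1-/- day 10 replicates 1 and 3 they were 3 (11.5%, where 10.8% of all genes were higher) and 1 (3.85%, against 8.33% lower). Phyhd1 was at 69.3 ± 15.9 CPM in Fh1+/+ and 132 ± 24.9 CPM in Fh1-/- (log2 fold change 0.91, adjusted p = 0.0376 by edgeR), Ogfod3 had −0.59, Jmjd1c 0.72 and P3h3, a collagen prolyl hydroxylase of another kind, −0.81. Of 15 genes of DNA methylation and base excision, 3 were higher (20%) and 2 lower (13.3%). Without Fh1-/- day 10 replicates 1 and 3 the balance turned, with 2 higher (13.3%, against 10.8% of all genes) and 4 lower (26.7%, against 8.33%). With all libraries Mbd1, which binds methylated DNA, was at 26.3 ± 2.71 and 43.9 ± 5.05 CPM (log2 fold change 0.72, adjusted p = 0.0210 by edgeR). The DNA glycosylases Mbd4 and Smug1 had log2 fold changes of −0.92 and 0.39, and Ogt, the sugar transferase that binds TET proteins, −0.70. Of 32 histone methyltransferases and flavin-dependent demethylases 3 were higher (9.38%) and 2 lower (6.25%), with log2 fold changes of −0.42 for Suv420h2, 0.38 for Kmt2b, −0.27 for Kdm1b and 0.32 for Kmt2a. Of 37 genes that supply or consume 2-oxoglutarate, succinate, fumarate, iron or ascorbate, 8 were higher (21.6%) and 6 lower (16.2%). Glud1, which makes 2-oxoglutarate from glutamate, was at 545 ± 106 CPM in Fh1+/+ and 1618 ± 572 CPM in Fh1-/- (log2 fold change 1.55, adjusted p = 0.0317 by edgeR). Got1 had 0.68, Fh1 itself 0.54, and D2hgdh, which returns hydroxyglutarate to 2-oxoglutarate, −1.01. At day 5 none of the genes in these 6 lists passed both thresholds by edgeR. The histone methyltransferase Smyd2, which lies outside the rule for named genes and was chosen after its values were seen, had an adjusted p of 0.0392 by edgeR at day 5, at 28.4 ± 2.76 CPM in Fh1+/+ and 42.1 ± 2.83 CPM in Fh1-/- (a log2 fold change of 0.56).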

How the data were processed

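Kidney RNA-seq libraries of 20 mice, 5 per genotype and day, were analysed from the raw counts per gene symbol that the authors deposited, which are not normalized. Per the study's methods, polyadenylated RNA was sequenced with a stranded kit, mapped with STAR 2.6.0c (version per the submitters' processing notes) to GRCm38, cleaned with Cutadapt, and counted with Rsubread on GENCODE models. Counting on strand is not stated, so reads of overlapping antisense genes cannot be told apart. Depth per library was 16654829 to 25001294 counts, with a median of 18547503. No 2 libraries of a group agreed within sampling noise (chi-square per degree of freedom 7.84 to 397 over 40 pairs). The closest pair, at 7.84, was Fh1-/- day 10 replicates 1 and 3, the libraries that stood apart. Both differed from the rest of their group by 295 to 397. Whether each library is a separate animal rests on the labels, so p-values measure only the spread between these samples.

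Each comparison was fitted over all genes by the quasi-likelihood test of edgeR 4.0.16 (glmQLFit and glmQLFTest, R 4.3.3) after filterByExpr and TMM scaling, with Benjamini-Hochberg adjustment; a call needed an adjusted p under 0.01 and an absolute log2 fold change over 0.58, the study's thresholds. The 10 libraries of a day, or of a genotype, made one fit, and the interaction of both used all 20. The steps were tested on simulated data. Alternatives were DESeq2 1.42.0, RLE size factors, the count filter dropped or raised to 1 CPM in 5 libraries, a call at adjusted p under 0.05 alone, a block for replicate number, a covariate for Y-linked expression, a single fit of all 20 libraries, and leaving out each library; leaving out Fh1-/- day 10 replicates 1 and 3 together (members and gene lists) and scaling by library totals were added after seeing the data. Positions and lengths came from GENCODE vM21 and promoters from RefSeq (GRCm38.p6), which held windows for 31 of 37 members. Gene lists were matched by symbol or, for 9 genes, older symbol. Per-library values are given for members called in any comparison, for up to 4 members of each enzyme group with the lowest p at day 10 and up to 2 at day 5, for the member of each group with the highest level per kilobase, and for Kdm5d; each list is given with the 4 lowest p at day 10. Members and lists were chosen with earlier results of these data known.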

Additional observations from a re-analysis of the deposited data

Results flagged for a closer look

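In 5 of 140 groups of 5 libraries, 1 library stood far from the rest of its group by Dixon's test; chance flags about 5% of groups. Kdm5d was at 0.149 CPM in Fh1+/+ day 5 replicate 1, the only library of that group without the Y-linked transcript, and at 13.3 to 16.4 CPM in the others. Alkbh6 was at 12.1 CPM in Fh1+/+ day 10 replicate 5 and at 17.2 to 18.8 CPM in the others. Alkbh1 was at 7.42 CPM in Fh1-/- day 5 replicate 4 and at 5.05 to 5.45 CPM in the others. Egln1 was at 82.9 CPM in Fh1-/- day 5 replicate 1 and at 92.2 to 94.4 CPM in the others. Hif1an was at 61.0 CPM in Fh1+/+ day 5 replicate 2 and at 54.9 to 55.5 CPM in the others.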

How the results depend on the processing

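At day 10 the number of members called was 2 by DESeq2 (P4ha1 and Plod2), 1 in one fit of all 20 libraries (P4ha1) and 0 under the other 18 alternatives. DESeq2 called 796 of 14350 genes there, and the single fit 838 of 14934. The difference between the days gave 1 with DESeq2 (272 of 14932 genes called) and 1 at an adjusted p under 0.05 whatever the fold (161 of 14934), and 0 otherwise. Fh1-/- kidneys between the days gave 6 at that threshold (1653 of 14235 genes) and 2 with DESeq2 (1281 of 14224). They gave 1 with the Y-linked level as covariate (361 of 14235). Leaving out 1 library gave 0 to 2 members, 2 without Fh1-/- day 10 replicate 2 (774 of 14381 genes). The cause was not tested. The replicate numbers did not pair the samples (correlations of same-numbered libraries −0.514 to 0.329), and with the replicate block 0 members were called in any comparison and 0 genes at day 10.

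Over all genes, calls at day 10 were 8, with 796 by DESeq2, 2 without Fh1-/- day 10 replicates 1 and 3, and 0 to 235 when 1 library was left out. When each library was left out, the log2 fold change at day 10 ran from −0.89 to −0.68 for P4ha1, from −0.71 to −0.53 for Plod2, from 0.51 to 0.76 for P4ha2 and from −0.46 to −0.33 for Egln1.

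Changes of sign at day 10 were −0.098, −0.11 and −0.14 on library totals for Alkbh5, Kdm5b and Kdm5c, −0.00077 with the Y-linked covariate and −0.022 to 0.15 with 1 library left out for Kdm5c, 0.012 with that covariate and 0.24 without Fh1-/- day 10 replicates 1 and 3 for Kdm5d, and 0.0097 without them for Tet2. At day 5 the covariate gave −0.0059 for Egln1 (library totals −0.0054), 0.061 for Egln3, 0.043 for P4ha2 and 0.044 for Plod2. With 1 library left out, day 5 values ran from −0.0092 to 0.34 for Alkbh2, −0.0064 to 0.047 for Egln1, −0.096 to 0.087 for Egln3, −0.087 to 0.019 for Kdm3b, −0.14 to 0.035 for P4ha2, −0.20 to 0.054 for Plod2, −0.036 to 0.086 for Plod3 and −0.18 to 0.18 for Tet1. These values cover the 23 members named by the rule; their other values, 425 at day 10 and 393 at day 5, kept sign and side of the threshold, apart from 3 DESeq2 or single-fit values of P4ha1 and Plod2 that passed it. By longest transcript, Egln2 was at 38.1 and Tet2 at 3.16 CPM per kilobase. Depth limits P4ha3, Kdm4d and Tet1.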
